A study of Saccharomyces cerevisiae with 4 samples.

Results

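The strongest hotspots of meiotic DNA breakage in budding yeast were 260 regions of 3626 hotspots in all. They were chosen by their count of Spo11 oligos in the pooled data, 1500 or more per region, so their strength is a description and not a result. They held 700403 oligos, 34.6% of all mapped oligos and 39.0% of those in hotspots, on 185.2 kb, which is 1.54% of a 12 Mb genome. The 714 hotspots of 500 or more but fewer than 1500 oligos, the class next below, held 29.7% on 302.8 kb, and the 2652 smaller ones held 24.5% on 496.9 kb.

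Meiotic recombination starts when Spo11, a relative of type II topoisomerases, breaks both strands of the DNA and remains joined to the new 5′ ends. It is then released by a nick nearby, still carrying a short oligo, so that the 5′ end of each oligo marks a cut. In budding yeast, breaks cluster in hotspots that lie mostly in the nucleosome-depleted promoters of genes. Neighbouring genes can face away from each other (divergent, with a promoter on each side of the gap), point the same way (tandem, with 1 promoter) or face each other (convergent, with none).

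The oligos came from diploid SK1 cells, homozygous for SPO11-HA3-His6::kanMX, a tagged SPO11, and for nuc1Δ::LEU2, his4X::LEU2, leu2::hisG, arg4-Nsp, ho::LYS2, lys2 and ura3. After 14 h in acetate presporulation medium at 30 °C the cells spent 4 h in potassium acetate sporulation medium, and no other strain, time or untreated control was used. Culture 1 gave 3 datasets (1A, 1B from the ligated oligos of 1A by another PCR, and 1C after ligating the purified oligos anew) and culture 2 gave 1. The deposited files pool all 4, so no spread between cultures could be computed and no test between samples was possible.

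The read list held 2024944 oligos from 4 sequencing runs of 395612 to 587674 oligos, named here by the start of their read names, and which run holds which dataset is not stated. Run FIDXMPL stood apart. Across the 260 strongest hotspots the log2 RPM (oligos per 1000000 mapped oligos of the run) correlated at 0.957 to 0.968 among the runs E8YXO9P, FE8RWPF and FFA0GWK, and at 0.710 to 0.755 between these and FIDXMPL. These are descriptions over hotspots chosen on the same oligos. Values without FIDXMPL are given for the shares of gene orientation, the gene lists and the counts of unequal strands and dominant positions. They are also given for the share of mapped oligos, the median share of oligos of 12 to 24 nt and the choice of members. Most other values were computed with FIDXMPL. The reads were mapped to S288C, a strain other than the one sequenced, and intervals below cover counting error only. No sequence of these regions is shown.

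The counts of the strongest hotspots ran from 1504 to 10255 oligos, with a median of 2244. Of the 260, 159 held 2000 or more, 74 held 3000 or more and 33 held 4000 or more. The first 10 held 3.64% of all mapped oligos, the first 25 held 7.41% and the first 100 held 19.4%. The counts ran on without a gap at the threshold. The last 3 hotspots inside it were those between PEX29 and DIG2 (1511 oligos), TPO4 and MOD5 (1508), and YCL019W and LEU2 (1504). The first 3 outside it were those between RGI1 and MOT2 and between VTC3 and CTF19, both 1 oligo short, and that between YIL055C and YIL054W (1498). At LEU2 the count has a further limit, since the strain carries inserted LEU2 fragments elsewhere and oligos from these would be listed at the same place. With the threshold scaled to the depth of each run, 196 of the 260 (75.4%) passed it in all 4 runs, 43 passed in 3 and 21 in fewer. A further 65 hotspots outside the set passed in at least 1 run.

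**Figure D1:**
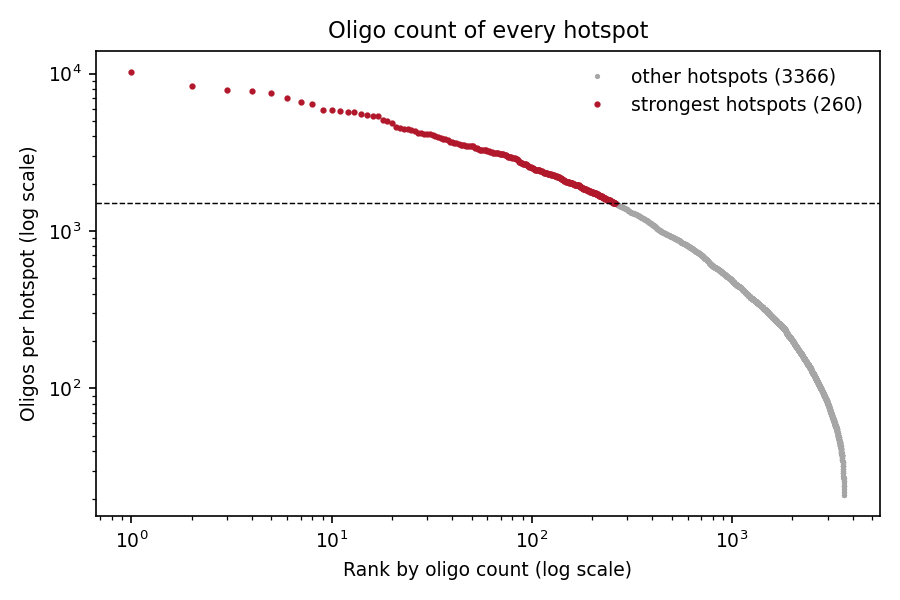
Oligos per hotspot against rank for all 3626 hotspots, both axes on log scales; the dashed line marks the threshold of 1500 and the 260 strongest are in red. The counts fall without a step from 10255 through the threshold.

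FRS2, which encodes a subunit of phenylalanyl-tRNA synthetase, and GAT1, an activator of nitrogen-regulated genes, enclosed the first of the 260 (VI, 95089 to 96288). Its 10255 oligos (95% exact Poisson interval 10057 to 10455) made 5215 RPM in run E8YXO9P, 5447 in FE8RWPF, 4921 in FFA0GWK and 4637 in FIDXMPL. It was the highest of the 260 in each of the 4 runs. The next lay on IV, 835505 to 836384, between SND1, which acts in targeting proteins to the endoplasmic reticulum, and CCT6, a chaperonin subunit. It held 8332 oligos, with 4153, 4050, 4070 and 4216 RPM in the same order of runs.

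The third hotspot lay on VII, 848469 to 849091, between ERG1, the squalene epoxidase of sterol synthesis, and ATF2, an acetyltransferase. It held 7886 oligos, with 4151, 4240, 3925 and 3217 RPM. The gap between YMR265C and RSN1 on XIII, 797888 to 798520, held 7804 oligos, with 3913, 4361, 3964 and 3046 RPM. In both, FIDXMPL gave the lowest value of the 4 runs. The gap between SRB2, part of the Mediator complex, and NCP1, which passes electrons to cytochrome P450 enzymes such as Erg11, held 7588 oligos on VIII, 189513 to 190515, with 3412, 4077, 3689 and 3688 RPM.

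The hotspot between EST3, a telomerase subunit, and FAA3, an acyl-CoA synthetase, held 7033 oligos on IX, 337549 to 339340. That between SPR3, a septin of sporulation, and ERG25, a sterol oxidase, held 6590 on VII, 609290 to 610481. The gap shared by LEU4, the entry enzyme of leucine synthesis, and MET4, the activator of sulfur genes, held 6434 on XIV, 426823 to 427591. Neither EST3/FAA3 nor SPR3/ERG25 was lowest in FIDXMPL, whereas LEU4/MET4 was. The first 10 ended with YIL012W and TIR3, a cell wall mannoprotein (5907 oligos; IX, 332520 to 333758), and with YAP1801, a clathrin adaptor, and MPC2, a subunit of the mitochondrial pyruvate carrier (5900 oligos; VIII, 422436 to 422948).

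Ranks 11 to 25 held 5798 to 4384 oligos. Nitrogen catabolism appeared with DUR1,2, the urea-degrading enzyme (5741 oligos; II, 642457 to 643232), and CAR1, arginase (5513; XVI, 339389 to 339821, beside the peroxisome gene PEX25). Lipid genes appeared with ARE1, a sterol acyltransferase (5675; III, 211566 to 212426, beside the rRNA methyltransferase gene BUD23), ERG11, the azole target of sterol synthesis (5382; VIII, 121780 to 122830), OLE1, the fatty acid desaturase (5011; VII, 397722 to 398443, beside SDS23), and ICT1, an acyltransferase (5798; XII, 340986 to 341836, beside the outer membrane import gene MIM2). At PEX25/CAR1, FIDXMPL had 3591 RPM against 2285 to 2696 in the other runs, a ratio of 1.46, the highest of the first 25. The next highest was 1.05 at BUD23/ARE1.

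Carbon and amino acid metabolism were present with GUT2, a glycerol phosphate dehydrogenase (5078 oligos; IX, 53471 to 55443, beside IMP21), ZWF1, the entry enzyme of the pentose phosphate pathway (4611; XIV, 197691 to 199730, beside the iron-sulfur gene NAR1), and GLY1, a threonine aldolase (4435; V, 68913 to 69748, beside the chromatin remodelling gene IES6). Regulators and transporters included SUT1, a regulator of sterol uptake, which shares its gap with the recombination gene RAD54 (4880; VII, 196572 to 197965), ROX1, the repressor of hypoxic genes (4527; XVI, 678367 to 679551, beside YPR064W), and MET30, which marks Met4 for ubiquitination (4384; IX, 267878 to 268652, beside YIL046W-A). The others lay between TAH1, a chaperone cofactor gene, and TVS1 (5435; III, 224765 to 225559), between TPO1, a polyamine exporter, and ISA1, an iron-sulfur assembly gene (5402; XII, 86508 to 87249), and between QCR2, a subunit of respiratory complex III, and AQY1, an aquaporin (4455; XVI, 920659 to 921824).

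**Figure D2:**
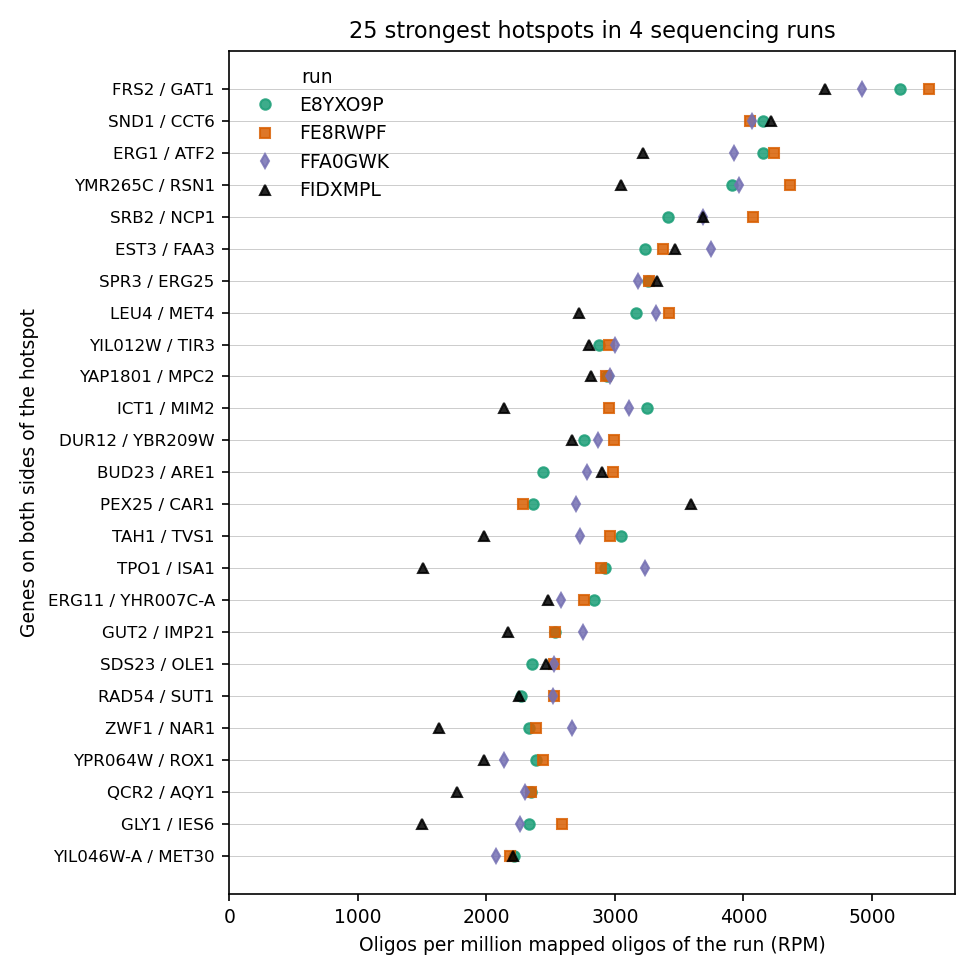
RPM (a linear axis) of the 25 strongest hotspots, labelled by the genes on both sides, with 1 symbol per sequencing run. FIDXMPL lies to the left of the other runs at TPO1/ISA1 (1508 RPM) and to their right at PEX25/CAR1 (3591 RPM).

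Genes were counted as next to a strongest hotspot when the gap on their 5′ side held one. This was so for 384 of 5565 genes tested, 6.9% of them, on the 15 chromosomes on which genes could be named. The gene lists were drawn up with results of these data known, so their shares are descriptions. The highest shares were those of the following lists. Sterol synthesis had 11 of 28 genes (39.3%), fatty acid and phospholipid synthesis 8 of 26 (30.8%), nitrogen regulators and permeases 10 of 38 (26.3%), the TCA cycle and acetate metabolism 6 of 24 (25%), and phosphate uptake and storage 6 of 25 (24%).

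In the sterol pathway the strongest hotspots lay on the 5′ side of ERG1 (7886 oligos), NCP1 (7588), ERG25 (6590), ARE1 (5675), ERG11 (5382), ERG2 (3766) and ERG3 (3296), all enzymes of the pathway or its storage branch. ECM22, an activator of sterol genes, had 2095, ERG24 1679, ERG12, the mevalonate kinase, 1627, and the scaffold gene ERG28 1602. The 11 genes lay in 11 different gaps, so the count does not rest on shared ones. Of all 28 sterol genes, 25 had some hotspot in the 5′ gap (89.3%). That share ran from 42.1 to 100% over the gene lists, and it was not computed over all genes.

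In lipid synthesis, FAA3 (7033 oligos) and OLE1 (5011) were followed at 2653 or less by the regulator INO2, the methyltransferases OPI3 and CHO2, FAA4, ELO1 and ACC1. Among nitrogen genes, GAT1 (10255), DUR1,2 (5741), CAR1 (5513) and CAR2 (4179) were followed by the permeases GNP1 (4111), MEP1 (3482), AGP2 (3078), BAP3 (2970) and MEP3 (2718), and by the activator UGA3 (1752). The genes from the list drawn up for the TCA cycle and acetate were ACH1 (2663), FUM1 (2207), MLS1 (2181), FBP1 (2049), IDH1 (1955) and MDH2 (1619). Of these, ACH1 lay above the median of 2244 oligos of the strongest hotspots and the other genes below it. The phosphate genes were led by PHO91, a vacuolar phosphate transporter (3120), and PHO4, the activator of the phosphate response (2576).

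Amino acid synthesis had 13 of 67 genes (19.4%), led by LEU4 (6434) and GLY1 (4435), and sulfur and methionine metabolism 5 of 27 (18.5%), led by MET4 (6434) and MET30 (4384). LEU4 and MET4 share 1 gap and hence 1 hotspot. Cell wall proteins had 7 of 38 (18.4%), led by TIR3 (5907) and the glucan synthase gene FKS1 (3250). Iron and copper uptake had 5 of 30 (16.7%), led by the ferroxidase gene FET3 (3980) and its permease partner FTR1 (3620). Purine synthesis had 3 of 20 (15%), led by GUA1 (2276) and the regulator PHO2 (1986). The list drawn up for glycolysis had 3 of 21 (14.3%), led by PFK2 (2620) and PYC2 (2532).

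Lists near the background were heat shock chaperones with 3 of 33 (9.09%; CCT6 with 8332 and CCT4 with 2458), middle sporulation genes with 2 of 27 (7.41%; CDA2 with 2733 and CLB5 with 1855), aminoacyl-tRNA synthetases with 2 of 32 (6.25%; FRS2 with 10255 and DPS1 with 1631) and hexose transporters and sensors with 1 of 19 (5.26%; RGT2 with 2010). The synaptonemal complex and strand exchange list had 1 of 25 (4.00%; RAD54 with 4880), too few genes to tell from the background. Shares below it were those of mitochondrial ribosomal proteins with 2 of 58 (3.45%; RSM7 with 3348 and MRPL8 with 3258) and cytosolic ribosomal proteins with 3 of 132 (2.27%; RPL43A with 2559, RPL7B with 1995 and RPS4A with 1854). None of 31 proteasome, 14 break machinery or 10 histone genes had a strongest hotspot. Of them 27, 11 and 10 had some hotspot in the 5′ gap, with no share over all genes computed. The proteasome, break machinery, histone and mitochondrial ribosomal protein lists hold too few genes to tell their shares from the background. The same holds for purine synthesis and glycolysis. With the strongest hotspots chosen without FIDXMPL, 375 of the 5565 genes had one (6.74%). Sterol synthesis then had 9, amino acid synthesis 12, nitrogen regulators and permeases 11, phosphate uptake and storage 7, cell wall proteins 6 and aminoacyl-tRNA synthetases 1, and the count of each other list was as before.

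More of the strongest hotspots lay between divergent genes than of weaker ones. Of the 242 on the 15 named chromosomes, 147 were divergent (60.7%, 95% Wilson interval 54.5 to 66.7%), 92 tandem (38.0%) and 3 convergent (1.24%). In the class next below, 48.0% of 666 were divergent (44.3 to 51.8%), and of all 3409 named hotspots 40.8% were. The share was 34.5% from 20 oligos, 40.5% from 200, 47.3% from 500, 50.3% from 1000, 62.6% from 1500 and 56.3% from 3000, each class ending where the next begins. The intervals of the last 2 classes overlapped, 55.1 to 69.5% and 44.8 to 67.2%, so no order within the strongest hotspots can be read from them. Without FIDXMPL the share among the hotspots then chosen was 59.0%, and with each run alone it was 59.1 to 60.6%.

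**Figure D3:**
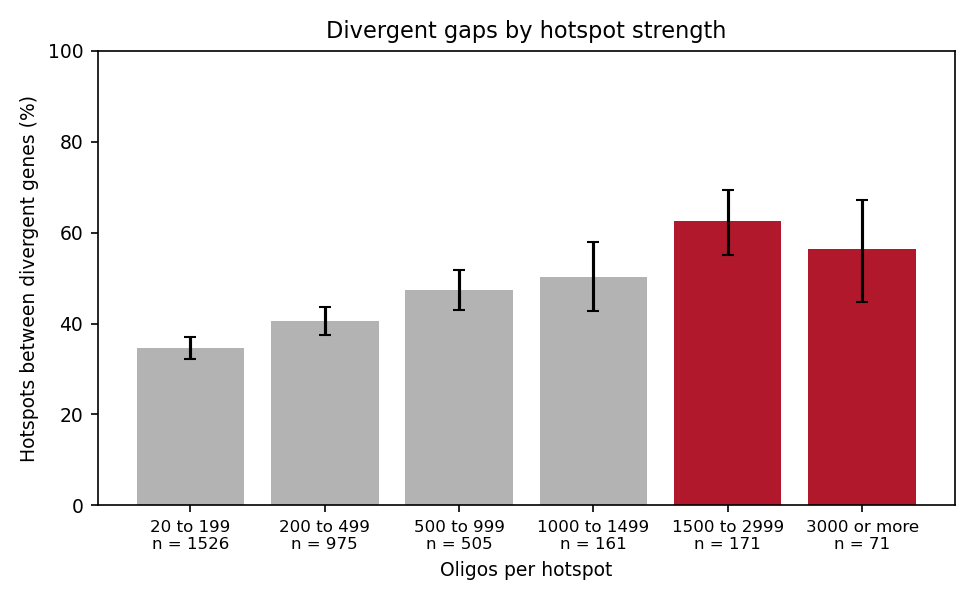
Percent of named hotspots that lie between divergent genes, by oligo count of the hotspot, with n below each bar and 95% Wilson intervals; the 2 classes of strongest hotspots are in red. The share is 34.5% in the weakest class and 62.6% and 56.3% in the red ones.

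Counted by gaps, 146 of 1447 divergent gaps (10.1%), 92 of 2671 tandem gaps (3.44%) and 3 of 1434 convergent gaps (0.209%) held a strongest hotspot. The convergent cases lay between TOP3 and YLR236C, between YJL028W and YJL027C, and between AHA1 and YDR215C, and of these only the second had its summit inside the gap. Among the 242, the summit lay inside a gap in 88.8%, against 91.1% of all named hotspots. Once chosen, divergent and tandem hotspots had like counts, with medians of 2276 and 2277 oligos. Their effective numbers of cut positions, a measure defined below, were 44.3 and 49.3. A tRNA gene lay in the gap of 10 of the 242 (4.13%), against 6.42% of all named hotspots.

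Within the hotspots, cuts were spread over many positions. The median strongest hotspot was 633 bp wide, and the central 80% of its oligos spanned 346 bp, against 182 bp in the class next below. The width depends on the count through the calling rule, so it is no independent property. The effective number of cut positions, the number of equally used positions and strands that would give the same chance that 2 oligos share one, had a median of 45.4 in the strongest hotspots (6.11 to 154.7), 33.1 in the class below and 24.9 over all. Across the 260 it followed the span of the central 80% with a Spearman rho of 0.68 and the oligo count with a rho of 0.20. It is thus not fully independent of the count that chose the members.

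**Figure D4:**
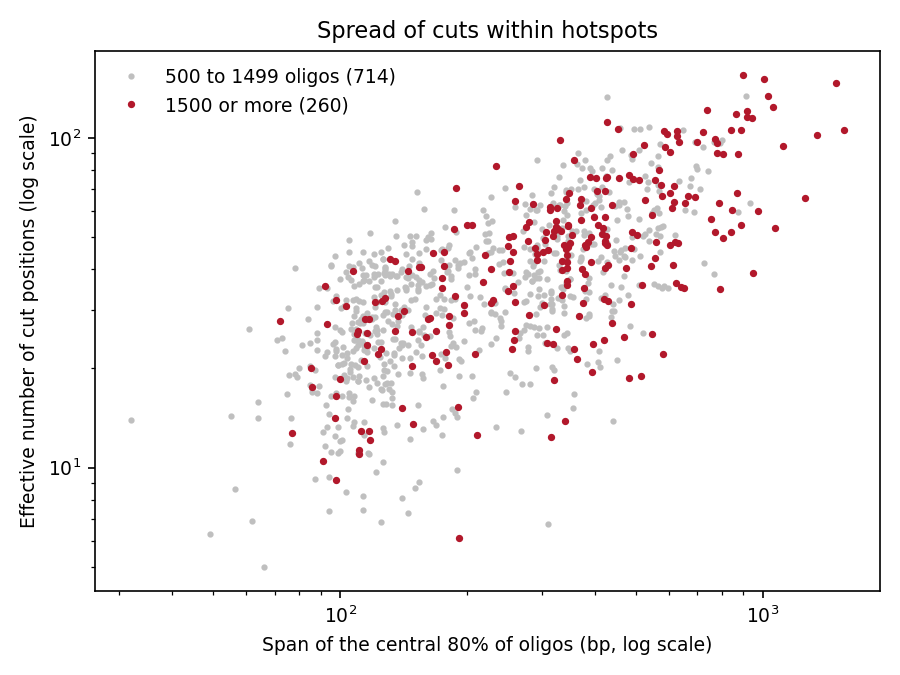
Effective number of cut positions against the span in bp of the central 80% of oligos, both on log scales; red points are the 260 strongest hotspots and grey points the 714 of the class next below. Both sets cover most of the same area, with red points up to 154.7 effective positions and down to 6.11.

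The widest were those between ZWF1 and NAR1 (2040 bp), MST28 and YAT1 (1996 bp), and GUT2 and IMP21 (1973 bp). The narrowest were those between IMG1 and BUD23 (260 bp), FMP42 and FSH2 (266 bp), and ECM7 and GMC2 (284 bp). The gene BUD23 thus had a narrow strong hotspot of 1778 oligos on one side and the ARE1 hotspot of 5675 on the other. Among the strongest 10, ERG1/ATF2 had 12.6 effective positions and YIL012W/TIR3 had 116.

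One position and strand held 10% or more of the oligos in 96 of the 260 (36.9%), against 52% of the class next below and 68.1% of all hotspots. This share is biased upward at low counts. Without the oligos of FIDXMPL, 84 of the 260 passed 10%. The largest shares were 38.1% between YLR256W-A and YLR257W (585 of 1535 oligos), 30.6% between ERG28 and MEI4 (490 of 1602) and 25.5% between BUD23 and ARE1 (1449 of 5675). In the first, the position held 31.1% of the oligos in E8YXO9P, 34.2% in FE8RWPF, 33.8% in FFA0GWK and 48.7% in FIDXMPL, so every run showed it. The smallest shares were 2.82% between SLM2 and YNL046W, 2.88% between YGR067C and ART5, and 2.98% between MAM3 and GPD2. The dominant position of the pooled oligos was also the first in each of 4 runs at 72 of the 260 hotspots, in 3 runs at 79, in 2 at 72 and in 1 at 36. At 1 hotspot it was first in none. The pooled oligos include those of each run, so such agreement is partly built in, and it was not counted for other hotspots.

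The runs differed at some of these positions. At YMR265C/RSN1 the dominant position held 28.3% of the oligos in E8YXO9P, 25.1% in FE8RWPF and 14.0% in FFA0GWK. In FIDXMPL it held 5.53%. At SRB2/NCP1 the shares were 5.19%, 12.8%, 10.0% and 9.30%, and it led in 1 run.

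Spo11 cuts both strands with a short stagger, so each cut can leave an oligo on either side. In the strongest hotspots opposite strands matched best at an offset of 2. The product of the counts at a top-strand end and at the bottom-strand end listed 2 positions further right was then 7.04 times the median over offsets from -50 to 50. The peak was 6.02 to 7.73 times the median in the runs and 1.42 times when each position and strand counted once. Hotspot by hotspot, an offset of 2 was best in 102 of the 260, 3 in 51 and 1 in 16. An offset from 1 to 3 was best in 65.0%, against 60.8% of the class below.

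How far the dominant position was matched on the other strand varied from hotspot to hotspot. At ERG1/ATF2 the dominant position had 1915 bottom-strand oligos and its partner at the offset of 2 had 902. At YMR265C/RSN1 the dominant position had 1476 top-strand oligos and its partner 1, and the most used position 1 to 3 away had 91. At BUD23/ARE1 it had 1449 bottom-strand oligos, with 0 at the partner and 0 at any offset of 1 to 3, and a count of 0 allows up to 3. Over the 260 hotspots the partner had a median of 7.31% of the count of the dominant position. It had 25% or more in 71 hotspots (27.3%), against 24.7% of all hotspots and 22.4% of the class below. It had 1% or less in 74 (28.5%), against 41.1% and 33.5%. Taking the most used of the offsets 1 to 3, the median was 23.4%. That share was 25% or more in 125 hotspots (48.1%), against 45.95% of all hotspots and 45.8% of the class below. It was 1% or less in 12 (4.62%), against 12.6% and 7.84%. The dominant position was picked as the highest count, which biases these shares downward, and the class next below had medians of 4.30% and 22.1%.

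**Figure D5:**
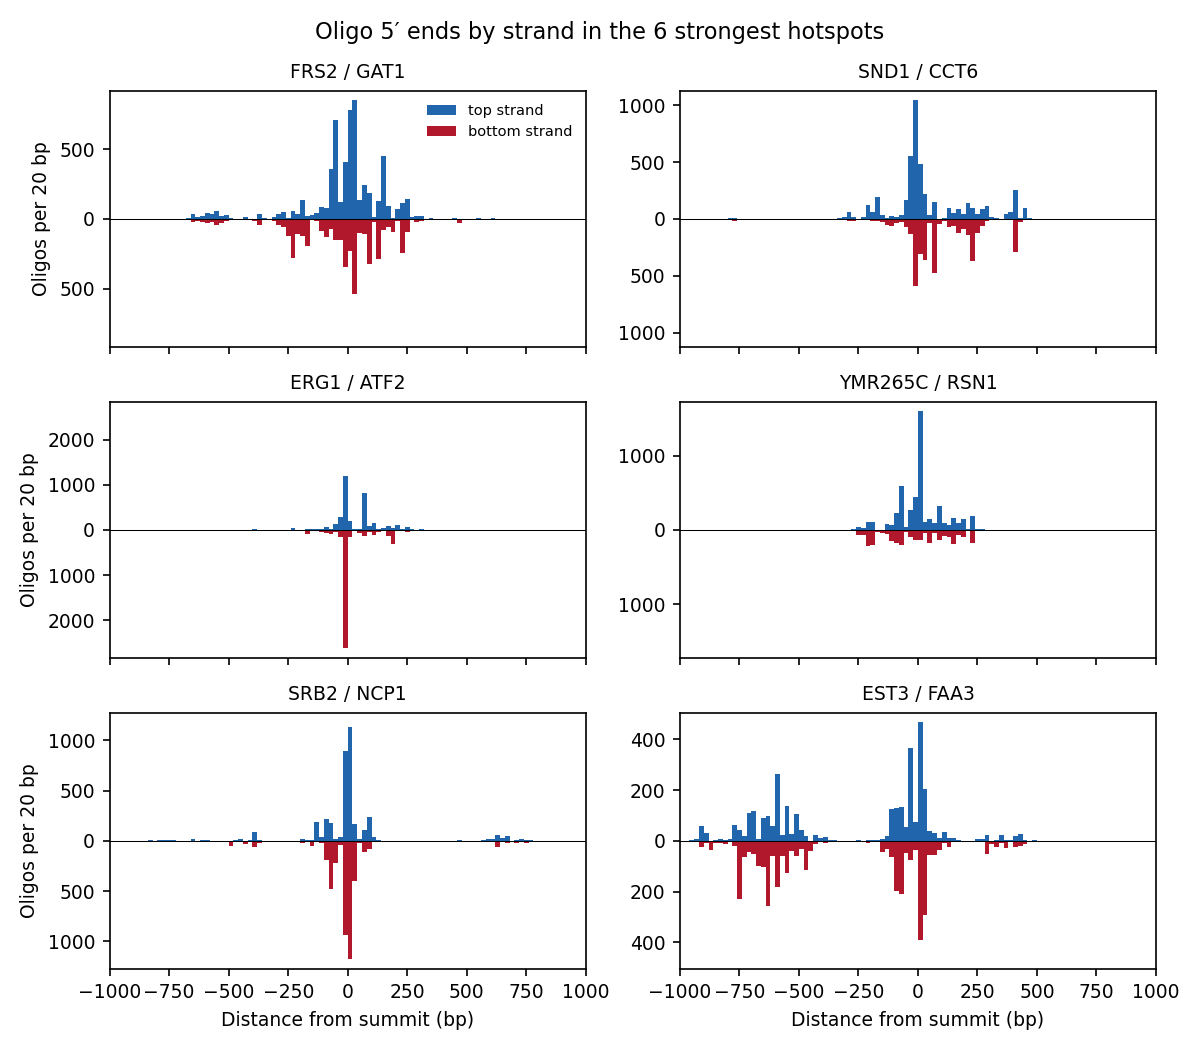
Oligo 5′ ends per 20 bp within 1000 bp of the summit in the 6 strongest hotspots, top strand upward and bottom strand downward, each panel on its own scale. ERG1/ATF2 has its highest bar on the bottom strand at the summit, YMR265C/RSN1 has its highest on the top strand, and EST3/FAA3 shows a further cluster centred more than 500 bp to the left.

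Summed over whole hotspots the strands were close to even. The share of oligos on the top strand had a median of 49.1%, and over all members together it was 49.7%. The strands differed by 1.5-fold or more in 54 of the 260 (20.8%), 25 with more on the top strand and 29 with more on the bottom, against 30% of the class below and 36.9% of all hotspots. Counting error alone is larger in the smaller hotspots. All 54 leaned the same way in each of the 4 runs, and 23 passed 1.5-fold in each. They were chosen on the pool of these runs, so this agreement is partly set by the choice. It was not counted for other hotspots. Without the oligos of FIDXMPL, 45 of the 260 passed 1.5-fold.

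The lowest top-strand share was 21.3% between LDB7, a chromatin remodeller subunit, and PDR3, an activator of drug resistance genes (95% Wilson interval 19.9 to 22.8%). It was 17.6% in E8YXO9P, 19.9% in FE8RWPF, 34.9% in FFA0GWK and 17.3% in FIDXMPL. Shares of 27.4% between PNC1 and VIR1 and 29.4% between ECM7 and GMC2 followed. The highest was 73.3% between DSE1 and RSP5, a ubiquitin ligase gene, with 70.7%, 70.8%, 67.0% and 81.7% in the runs. GCV3/PTA1 had 71.3% and ERG28/MEI4, beside a gene of the break machinery itself, had 71.0%. In both DSE1/RSP5 and LDB7/PDR3, FFA0GWK lay nearest to even strands.

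The level in FIDXMPL relative to the other runs varied from hotspot to hotspot. Its median over the 260 was 0.937, against 1 in the class below and 1.01 over all hotspots. This ratio was below 1 in 161 (61.9%), against 50% of the class below and 48.8% of all hotspots. It was 1.5-fold or more lower in 26 (10%), where 11.1% of the class below and 14.1% of all hotspots were, and 1.5-fold or more higher in 13 (5%), against 11.8% and 14.2%. The choice of members sets part of this. With hotspots chosen without FIDXMPL (256) the median was 0.903, with 31 lower and 6 higher, and with hotspots chosen on FIDXMPL alone (258) it was 1.02, with 14 lower and 31 higher.

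The lowest ratio was 0.155 between RPS4A, a ribosomal protein gene, and YJR146W on X, 703487 to 704088. It had 1062, 1143 and 1197 RPM in the other runs and 176.7 RPM in FIDXMPL. The hotspot between HPA3 and SIT1, a siderophore transporter gene, on V, 27074 to 27541, had 1231, 1106 and 1180 RPM and 202.0 RPM in FIDXMPL. In FIDXMPL these 2 thus lay far under the threshold of 740.8 RPM, and they lay 41.5 and 27.4 kb from a chromosome end. The third was AAC1/FET3 at 0.453, with 2159 to 2299 RPM in the other runs and 1022 in FIDXMPL.

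The highest ratio was 1.98 at LDB7/PDR3, with 1347, 1230 and 950 RPM in the other runs and 2289 in FIDXMPL. GCV3/PTA1 followed at 1.92, with 595.6 to 697.7 RPM and 1224 in FIDXMPL. ARG4/DED81, at the arginine synthesis gene ARG4 that carries the arg4-Nsp allele here, had 1.86, with 692.6 to 791.1 RPM and 1365 in FIDXMPL. GCV3/PTA1 and ARG4/DED81 reached 740.8 RPM in 0 and 1 of the other runs. Whether culture, ligation, PCR or run lies behind these differences cannot be told apart.

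Oligo lengths in the strongest hotspots differed little from those in other hotspots. Oligos of 12 to 24 nt made up 10.8% in the strongest hotspots, 10.6% in the other hotspots and 19.4% outside hotspots. Those of 25 to 32 nt made up 59.9%, 61.3% and 52.9%, those of 33 to 40 nt 21.9%, 21.2% and 21.4%, and those of 41 to 76 nt 7.39%, 6.89% and 6.34%. Run by run the share of 12 to 24 nt in the strongest hotspots was 9.65% in E8YXO9P, 9.79% in FE8RWPF, 15.1% in FFA0GWK and 7.96% in FIDXMPL. The difference between runs was thus larger than that between strong and other hotspots, which was 0.18 to 0.26 percentage points within each run. If the listed start is not itself part of the read, which the file leaves unsettled, every length is 1 nt shorter.

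Single hotspots ranged from 6.75 to 15.7% in the share of 12 to 24 nt, with a median of 10.9%. The highest were AGP2/HSL7 (15.7%), a hotspot on XI at 67635 to 68496 (15.2%) and RLI1/UBC13 (13.9%). The lowest were ATG23/IMD3 (6.75%), ECM7/GMC2 (7.19%) and ARB1/PHM8 (7.33%).

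The distance to other hotspots depended on how it was measured. The nearest other summit lay a median of 1501 bp away, against 1500 bp over all hotspots. From edge to edge the median was 1022 bp, against 1225 bp over all and 793.5 bp among those of 3000 oligos or more. The nearest hotspot held a median of 208 oligos, against 245. The next hotspot on at least 1 side, at any distance, was itself a strongest hotspot in 36 (13.8%), against 13.8% of all hotspots. The nearest neighbours lay 434 bp away at YIL046W-A/MET30, 445 bp at PTI1/CHO2 and 446 bp at PDR8/BOP2. The most isolated were ATG23/IMD3 (8708 bp), PFK2/YMR206W (6798 bp) and ATO3/EFT2 (6180 bp).

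Strongest hotspots that followed each other with no weaker one between formed 17 groups with 36 members. These are the 36 with such a neighbour above, 13.8% both here and over all hotspots. The largest groups had 3, on IV from 1411115 to 1421140 (6780 oligos, beside SNF1, DIG2 and KRE2) and on XI from 524675 to 527473 (6148 oligos). There were 9 genes with one on each side, among them GPD2, a glycerol phosphate dehydrogenase gene, with 2286 and 3841 oligos, and DEP1, with 2309 and 3554. No like count was made over all hotspots. The gap between MIR1 and BNA2 held 2 strongest hotspots, with 2890 and 1607 oligos. Along a chromosome the next strongest hotspot lay a median of 30.6 kb away (0.577 to 218.3 kb).

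None of the 260 lay within 20 kb of a chromosome end, and the nearest was QCR2/AQY1 at 20.9 kb. In those 640 kb 60 hotspots were called, 9.38 per 100 kb, against 32.7 from 20 to 120 kb and 30.8 beyond. Only uniquely mapped reads were listed, so oligos from any repeated sequence there would be missing. The zone from 20 to 120 kb held 80, or 2.51 per 100 kb, and the rest of the genome 180, or 2.20 per 100 kb. As a share of the hotspots in each zone these were 7.67% and 7.13%. Ends were taken from the first base of the map and the last listed oligo.

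Every chromosome had some. Chromosome I had the most per length, 3.04 per 100 kb with 7 hotspots, and VIII the fewest, 1.44 with 8. III had 5, or 1.58 per 100 kb, among them BUD23/ARE1 and TAH1/TVS1. The share of a chromosome's oligos that fell in its strongest hotspots ran from 26.1% on XIV to 43.9% on VII, with 42.9% on IX and 40.1% on VI. Small chromosomes carried few members, so single hotspots weigh heavily there. The FRS2/GAT1 hotspot alone made up 10255 of the 24538 oligos in the 7 strongest hotspots of VI.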

How the data were processed

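Spo11 oligos of 4 datasets from 2 cultures were sequenced by pyrosequencing, and both deposited files pool them. The first file lists uniquely mapped reads with a score per read, per the file headers; the deposited score was not used. The second is a curated map of raw hit counts per position, strands together, per the file headers, and was used as an alternative and for 1 check. Aligner and genome build: not given in the sources used here, where S288C is named in a header; 0 columns belonged to no sample. Runs were told apart by the read names' first 7 characters and never treated as replicates. Each run had 395612 to 587674 reads, without recorded molecular identifiers, so intervals cover counting error only.

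The 5′ end was the listed start (top strand) or end (bottom strand). Counts on 16 chromosomes were smoothed with a 201 bp Hann window, segments at 2.3 times the mean over 12 Mb were joined across up to 200 bp and kept from 25 bp and 10 RPM; those of 1500 oligos or more are the strongest hotspots. The calling was tested on simulated data. Python 3.11.15, NumPy 2.4.6, pandas 2.3.3 and SciPy 1.17.1 were used. Names, neighbours and orientation came from 6002 protein-coding genes of the R64 table. All 768 listed symbols matched. In 200 of 204 windows of 50 kb on 15 chromosomes map and table agreed within 100 bp; beyond 200 kb on XI the median shift was -380 bp, so the 18 strongest hotspots of XI stayed unnamed. A summit outside every gap went to the nearest one.

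The members and 21 gene lists were chosen with earlier results of these data known. Named were the first 25 hotspots, the 3 on each side of the threshold, the 3 highest and lowest for each measure, and at least the 2 genes per list with most oligos; others were named after their values were seen. There are no tests between samples: values are descriptions beside those of all hotspots, with 95% Wilson or exact Poisson intervals and a floor of 3 counts. Alternatives changed the threshold, window, merging, limits, runs, gene table position and length classes. Motif counts in promoters were planned and not run, since no sequence was used here.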

Additional observations from a re-analysis of the deposited data

Results flagged for a closer look

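The curated map replaced the read list in 1 alternative, and in 3 of the strongest hotspots it held more than 3 hits at positions with no listed read. There were 7 such hits between YPR064W and ROX1, 35 between ATG23 and IMD3, and 7 between YCL019W and LEU2. Over the 260 strongest hotspots the map held 0.984 to 1.03 times the listed oligos. What the curation did was not tested.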

How the results depend on the processing

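Of the recomputed values, 50 stayed close to the reported one (within 1.5 times for counts, within the counting interval for shares) and 34 moved. A threshold of 1000 oligos gave 437 hotspots with 45.4% of mapped oligos, and one of 2000 gave 159 with 25.97%. The share was 34.1% with a narrower smoothing window and 35.7% with a wider one, 30.4% without merging and 32.1% with segments at 5 times the mean. Without E8YXO9P, FE8RWPF, FFA0GWK or FIDXMPL it was 35.0%, 34.2%, 34.4% and 34.9%. With each of these runs alone, added after seeing the data, it was 34.3%, 36.6%, 34.8% and 33.8%. At a threshold of 2000, 25 hotspots had unequal strands, 49 had a position with 10% or more and 23 differed 1.5-fold in FIDXMPL (39 in the main setting). Limits of 2-fold, 20% and 2-fold gave 15, 11 and 5. The median share of 12 to 24 nt was 11.2%, 11.2%, 9.12% and 11.6% without the runs in the order above, 19.5% for 12 to 26 nt and 14.2% with lengths 1 nt shorter. The median distance to the nearest hotspot was 1022 bp edge to edge (1225 bp over all hotspots) and 1970 bp to neighbours of 100 or more oligos. The median width was 527 bp at 5 times the mean and 346 bp for the central 80%. The FIDXMPL ratio had a median of 0.903 or 1.02 with hotspots chosen without that run or on it alone, added after seeing the data. These changes follow from the altered limits or oligos. The divergent share stayed between 56.6 and 62.3% with other thresholds, runs left out, the gene table shifted or only summits inside a gap. Genes with a strongest hotspot stayed between 348 and 384 without FIDXMPL, with the gene table shifted or with only summits inside a gap. The offset stayed at 2 with each run left out or each position and strand counted once. Neither the divergent share nor the gene count was recomputed with another smoothing window, without merging or with segments at 5 times the mean.

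No paired analysis was possible because both files pool the datasets. One time point and strain, 2 cultures that cannot be separated, PCR copies that cannot be told from separate molecules and mapping to another strain limit all values. The planned motif counts were not run.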
